A study of Sus scrofa with 36 samples.

Results

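The genes of the nuclear lamina and of the bridge between the nuclear envelope and the cytoskeleton were followed in neonatal pig hearts with and without a myocardial infarct. The set holds 8 genes taken by symbol: the lamins LMNA, LMNB1 and LMNB2, the lamin B receptor LBR, the inner membrane bridge proteins SUN1 and SUN2, and the nesprins SYNE1 and SYNE2. Of these 8, 7 have a row among the 25880 genes of the count table, and all 7 passed the filter on low counts. SYNE1 has no row under its symbol and was not analysed here. The genes were put together because SUN2 changed in the sham-operated hearts of the older pigs and because lamin B2 is known to affect how many chromosome sets a cardiomyocyte holds. For that reason the change between the Late and Early shams of the older pigs is given without a test for every member, and SUN2 is given without a test wherever an Old sham group enters.

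The animals were Yorkshire-landrace piglets of no stated genetic modification. Young pigs were operated on at day 2 of life and Old pigs at day 14, and hearts were taken 1 day (Early) or 7 days (Late) after surgery, at 3, 9, 15 or 21 days of age for the Young Early, the Young Late, the Old Early and the Old Late hearts. Infarcts were made by permanently tying off branches of the left anterior descending and left circumflex arteries in 12 pigs, each of which gave an infarct zone (IZ) and a border zone (BZ) sample. Another 12 sham-operated pigs gave the anterior wall of the left ventricle (Sham). Age at surgery, time and region make 12 groups of 3 libraries, 36 in all, so any group is 3 pigs, and tissue pieces hold every cell type of the heart. One Old Late BZ library carries 2 different pig names in its labels. RNA was selected by its polyA tail.

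Lamins are intermediate filament proteins that form a meshwork under the inner nuclear membrane. A-type lamins come from LMNA, are abundant in stiff, mechanically loaded tissues such as the heart, and when mutated cause dilated cardiomyopathy with conduction disease. B-type lamins come from LMNB1 and LMNB2, keep a lipid anchor to the membrane and are found in nearly all cells, with LMNB1 generally high in dividing cells. SUN proteins in the inner membrane grip the tails of nesprins in the outer membrane, and this bridge (the LINC complex) connects the lamina to actin, microtubules and intermediate filaments.

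In the files' coordinates, 98.7% of 13719 genes compared by symbol overlapped the gene of the same name in the RefSeq annotation of Sscrofa11.1, as did all 7 members. LMNA lies at chr4:93897687-93949802 on the minus strand, LMNB1 at chr2:129807247-129862208 on the plus strand, LMNB2 at chr2:76125920-76146733 on the plus strand and LBR at chr10:13389900-13432131 on the minus strand. SUN1 lies at chr3:486367-533317 and SUN2 at chr5:9273131-9293258, both on the plus strand, and SYNE2 at chr1:193912483-194207376 on the minus strand. SUN2 shares 401 exon bases with GTPBP1 on the other strand, and LMNB2 shares 208 with an unnamed model on the other strand. The library kit keeps strand, but whether the counting used it is not given in the sources used here, so reads there may be split between the genes.

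Library totals ran from 8113200 to 39789874 counts, and mitochondrial genes took 9.8% to 44.1% of them. Levels are given in CPM, each gene's counts relative to the library's total after TMM scaling, which sets the middle of the libraries' genes level. The summed CPM of the 9 cardiomyocyte markers with a row, of 12 listed, ran from 81900 to 132000 in shams, 33600 to 181000 in BZ and 24500 to 87500 in IZ, with none at 0. The 9 fibroblast markers with a row, of 10 listed, summed to 715 to 1690 in shams, 1740 to 16000 in BZ and 1550 to 20900 in IZ. In whole tissue, fewer cells of a type and less RNA per cell cannot be told apart, and the part of this mixture in the results below was not tested. One library stood apart: Young Early BZ replicate 2 had the largest total, a mitochondrial share of 10.1% against 22.3% to 44.1% in the other Young Early libraries, and the cardiomyocyte sum of 181000. Its counts correlated with its own group at r = 0.899, against 0.938 to 0.985 for the other 35 libraries. Calls in groups other than its own increased when it was left out, so results are given with and without it.

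Compared per kilobase of exon (RPKM), LMNA was the most abundant member, with a median of 39.8 over the 36 libraries. SUN2 followed at 19.1, then LMNB1 at 7.42, SUN1 at 6.37, LMNB2 at 4.2, LBR at 2.32 and SYNE2, the giant nesprin-2, at 1.12. Raw counts per member and library ran from 50 (LMNB1) to 31695 (LMNA). The highest library exceeded the lowest 16.1-fold in CPM for LMNA, 13.5-fold for SYNE2, 12.8-fold for SUN1, 6.64-fold for LMNB1, 5.91-fold for SUN2, 2.96-fold for LMNB2 and 2.54-fold for LBR. When the 12 groups were ordered by mean CPM, most neighbours overlapped: of 11 neighbouring pairs, 9 overlapped for LMNA, SUN2 and SYNE2, 10 for SUN1, and 11 for LMNB1, LMNB2 and LBR.

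Injured tissue held more lamin mRNA and less SUN1 mRNA than sham tissue. On the mean of the 4 conditions (2 ages by 2 times), LMNA, LMNB1 and LMNB2 rose in both zones, SUN1 fell in both, and SYNE2 fell in IZ. That made 9 of 12 member comparisons called, 6 higher and 3 lower, at an adjusted p under 0.05 in edgeR's quasi-likelihood test. The background was high: 59.6% of the 14537 genes tested were called for the mean IZ (31.2% higher, 28.3% lower) and 46.4% for the mean BZ (25.5% higher, 20.9% lower). Within single conditions, 9 of 26 member comparisons were called in IZ, where 27.2% (Young Early), 34.3% (Old Early), 30.2% (Young Late) and 49.1% (for Old Late) of all genes were. In BZ 5 of 26 were called, against 1.11%, 22.5%, 14.2% and 39.7% of all genes in the same order.

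The split between higher and lower calls depended on the scaling. With TMM it was 6 higher and 3 lower in IZ, 3 and 2 in BZ, and 6 and 3 for the means. With library totals in place of TMM it was 14 and 0, 6 and 0, and 7 and 0. Library totals shifted the median of all genes by 0.45 on the log2 scale in the mean IZ response and by 0.25 in the mean BZ response. Relative to that median, the mean IZ responses with library totals were 1.38 for LMNA, 1.15 for LMNB1, 0.61 for LMNB2, 0.24 for LBR, -0.74 for SUN1 and -0.48 for SYNE2, each within 0.03 of the value with TMM. Without that subtraction, SUN1 was at -0.29 (adjusted p = 0.287) and SYNE2 at -0.03 (adjusted p = 0.912). So the lower calls of these genes are statements about their level relative to other genes. The higher lamin calls are relative levels too, since both scalings set a gene's counts against the rest of its library. Leaving out Young Early BZ replicate 2 raised the calls from 9 to 18 in IZ, from 5 to 10 in BZ and from 9 to 10 for the means. The share of all genes called in IZ rose too, to 36.2%, 42.1%, 37.1% and 56.0% in the order above. In BZ it was then 1.11%, 29.9%, 21.0% and 47.4%, and for the means 64.5% in IZ and 46.2% in BZ.

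LMNA encodes lamins A and C by alternative splicing, which gene counts do not separate. Its CPM in the Old Early shams was 121, 105 and 114, against 242, 237 and 318 in BZ and 505, 259 and 418 in IZ. In the Old Late shams it was 102, 88.2 and 85.8, against 274, 255 and 218 in BZ and 378, 217 and 276 in IZ. In both conditions of the Old pigs, all libraries of either zone lay above all shams. Young Late hearts had the same order, with 181, 112 and 121 in shams, 260, 353 and 316 in BZ, and 448, 381 and 321 in IZ.

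In Young Early hearts the shams were already high, at 272, 313 and 233. IZ held 389, 461 and 423, above all 3 shams. BZ held 233, 1380 and 303, so the zone overlapped the shams on both sides of its outlying library. Over the 8 comparisons of a zone with its shams, LMNA did not overlap in 7. The share of all genes whose zone libraries lay wholly above the shams was 25.5%, 26.9%, 25.9% and 29.3% in IZ, and 8.01%, 23.2%, 18.2% and 30.3% in BZ, in the order of conditions used above.

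The log2 fold change of LMNA in IZ was 1.80 ± 0.39 (SE; adjusted p = 0.000719) in Old Early, 1.66 ± 0.39 (adjusted p = 0.000781) in Old Late and 1.47 ± 0.38 (adjusted p = 0.00457) in Young Late. In Young Early IZ it was 0.64 ± 0.38 and did not pass the test (adjusted p = 0.207). In BZ it was 1.44 (adjusted p = 0.00425) in Old Late, 1.23 (adjusted p = 0.0208) in Old Early, 1.16 (adjusted p = 0.04) in Young Late and 1.23 (adjusted p = 0.0921) in Young Early. The mean response was 1.39 ± 0.19 in IZ (adjusted p = 4.02e-07) and 1.26 in BZ (adjusted p = 5.1e-06). With Young Early BZ replicate 2 left out the Young Early BZ difference was -0.02 (adjusted p = 0.969), the Young Early IZ difference of 0.64 passed the test (adjusted p = 0.024), and the mean BZ response was 0.95 and still called. Without Young Early BZ replicate 1 or 3, which leaves the outlying library more weight, the Young Early BZ difference passed at 1.62 (adjusted p = 0.00886) and 1.56 (adjusted p = 0.0345). DESeq2 called it with all libraries (1.22, adjusted p = 0.046). The Young Early IZ difference passed with only the groups compared in the fit (0.64, adjusted p = 0.026), where 34.0% of all genes were called.

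Of these LMNA calls, the 3 in IZ, the one in Old Late BZ and both means held when each library of the comparison was left out in turn. The Old Early BZ call was lost without any one of the 3 Old Early shams or BZ replicate 3 (1.08 to 1.28, adjusted p = 0.0502 to 0.076). The Young Late BZ call was lost without BZ replicate 2 or 3 or Sham replicate 2 or 3 (1.04 to 1.15, adjusted p = 0.0905 to 0.169), and with RNA integrity as a covariate (1.15, adjusted p = 0.0543). Young Late is the one condition with libraries from 2 preparation batches. Within batch 1, with 1 library a group, LMNA differed from sham by 2.0 in IZ and 1.49 in BZ (log2 CPM), and within batch 2, with 2 a group, by 1.24 and 1.03.

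**Figure D1:**
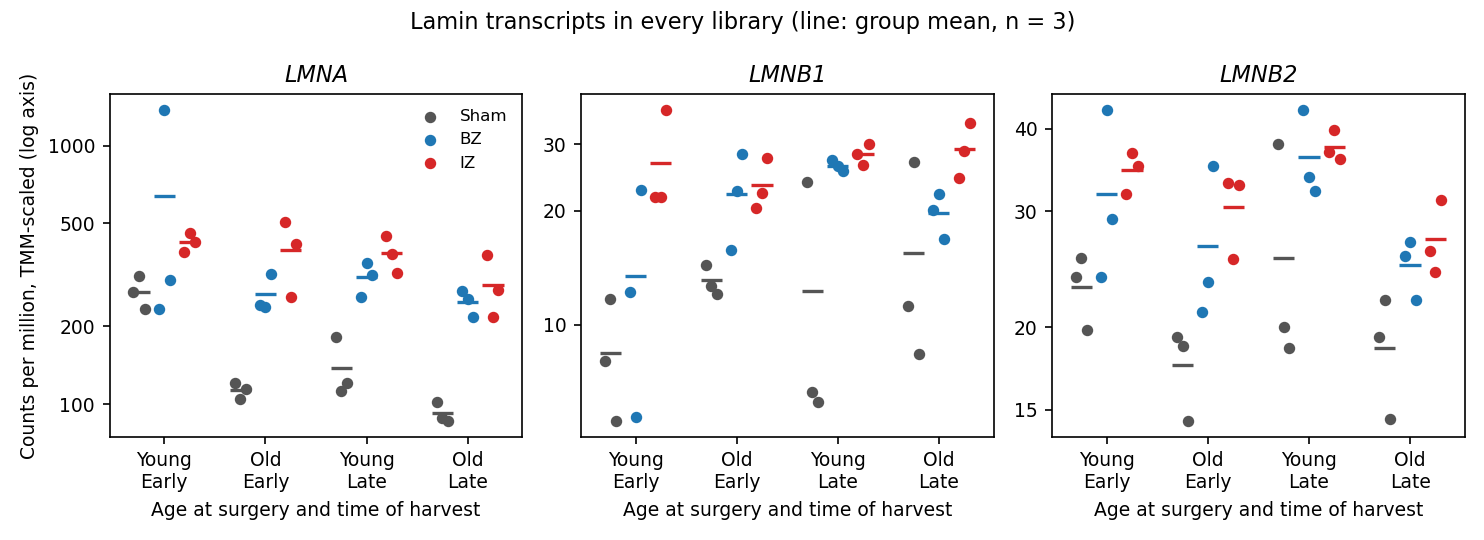
TMM-scaled CPM (log axis) of LMNA, LMNB1 and LMNB2 in each of the 36 libraries, by condition and region. Points are libraries and bars are group means of 3. LMNA in Old Early, Young Late and Old Late hearts lies at 85.8 to 181 in shams and 217 to 505 in both zones, and 1 Young Early BZ library reaches 1380.

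The B-type lamin LMNB1 rose in the infarct zone of Young Early hearts. Its CPM in Young Early shams was 8.05, 11.7 and 5.57, against 21.8, 21.8 and 37 in IZ. The log2 fold change was 1.67 ± 0.44 (adjusted p = 0.00614), and the call held with any one of the 6 libraries left out. BZ held 12.2, 5.7 and 22.7 and overlapped the shams, with a difference of 0.68 (adjusted p = 0.419).

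In Old Early hearts LMNB1 lay at 14.4, 12.7 and 12.1 in shams, 15.8, 22.6 and 28.2 in BZ and 20.3, 22.3 and 27.5 in IZ. Both zones lay above the shams without overlap, but neither difference passed the test, at 0.76 (adjusted p = 0.198) in BZ and 0.84 ± 0.42 (adjusted p = 0.126) in IZ. With only the groups compared in the fit both passed, at 0.76 in BZ (adjusted p = 0.0482) and 0.86 in IZ (adjusted p = 0.0069). Of all genes, 23.2% were called in that BZ fit and 38.6% in that IZ fit. In Young Late hearts LMNB1 was at 23.9, 6.67 and 6.25 in shams, 27.3, 26.2 and 25.5 in BZ and 28.3, 26.5 and 30 in IZ. In Old Late hearts it was at 11.2, 26.9 and 8.4 in shams, 20.1, 22.2 and 16.9 in BZ and 24.4, 28.8 and 34.2 in IZ.

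In each Late sham group, 1 library stood near the injured hearts and the other 2 well below. These were Young Late Sham replicate 1 (23.9) and Old Late Sham replicate 2 (26.9). The summed CPM of the 32 cell cycle genes with a row, of 37 listed, was also highest in those libraries: 938 in Young Late Sham replicate 1, against 460 and 248 in the other 2, and 681 in Old Late Sham replicate 2, against 343 and 268. The part of these genes in the LMNB1 values was not tested. Of the 31 cell cycle genes tested, 24 rose in the IZ of Young Late hearts, where 30.2% of all genes were called, and 12 in that of Old Late hearts, where 49.1% were, a larger share than in the list. None was lower in either.

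In Young Late IZ LMNB1 rose by 1.17 ± 0.43 (adjusted p = 0.0406), a call that was lost without Sham replicate 2 or 3 or any IZ library (0.84 to 1.21, adjusted p = 0.0638 to 0.197). The call was also lost with no count filter (1.17, adjusted p = 0.0523) and with only the groups compared in the fit (1.1, adjusted p = 0.0799). Without Young Late Sham replicate 1 the rise was 2.13 (adjusted p = 0.000896). In Old Late IZ it differed by 0.91 ± 0.42 (adjusted p = 0.0738), by 1.57 once Old Late Sham replicate 2 was left out (adjusted p = 0.00667), and by 0.91 without Young Early BZ replicate 2 (adjusted p = 0.0433). It passed with all libraries in limma-voom with the pig as a random block (1.09, adjusted p = 0.0172), in DESeq2 (0.97, adjusted p = 0.0469) and with RNA integrity as a covariate (1.15, adjusted p = 0.0497). In Young Late BZ it differed by 1.07 (adjusted p = 0.0944), and by 2.03 (adjusted p = 0.00306) without Young Late Sham replicate 1. The difference in Old Late BZ was 0.35 (adjusted p = 0.53). The mean response was 1.15 ± 0.21 in IZ (adjusted p = 3.91e-05) and 0.71 in BZ (adjusted p = 0.0075), and both calls held with any one of the 24 libraries left out.

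LMNB2, the B-type lamin known to affect cardiomyocyte ploidy, had small differences that pointed one way in every condition. Its CPM in Old Early shams was 19.3, 18.7 and 14.4, against 33.1, 25.4 and 32.9 in IZ, a rise of 0.80 ± 0.24 (adjusted p = 0.0101). That was the only single-condition call for LMNB2 in this fit, and it was lost without Old Early Sham replicate 3 (0.68, adjusted p = 0.0614). In Young Early hearts it lay at 23.8, 25.5 and 19.8 in shams and at 31.9, 36.8 and 35.1 in IZ, above all shams, with a difference of 0.58 ± 0.24 (adjusted p = 0.0641). That difference passed with only the groups compared in the fit (0.58, adjusted p = 0.0219), where 34.0% of all genes were called.

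In Late hearts LMNB2 was at 19.3, 22 and 14.5 in Old shams and 26.1, 24.3 and 31.2 in Old IZ, again above all shams (0.55, adjusted p = 0.0547). Young Late shams held 37.9, 20 and 18.6 and overlapped IZ at 36.9, 39.8 and 36 (0.55, adjusted p = 0.0786). The highest of these shams was the library with the highest LMNB1, and without it the IZ difference was 0.97 (adjusted p = 0.00321) and the BZ difference 0.92 (adjusted p = 0.0093) in place of 0.50 (adjusted p = 0.156). Without Old Late IZ replicate 1, IZ replicate 2 or Sham replicate 2, the Old Late IZ difference was 0.67 to 0.69 and passed (adjusted p = 0.0281 to 0.0406). With all libraries it passed in limma-voom with the pig as a random block (0.56, adjusted p = 0.0477), with DESeq2 or its size factors (0.61, adjusted p = 0.0295 and 0.0355), with only the groups compared (0.61, adjusted p = 0.0315) and without mitochondrial genes (0.62, adjusted p = 0.0282). The mean response was 0.62 ± 0.12 in IZ (adjusted p = 5.04e-05) and 0.50 in BZ (adjusted p = 0.00113), and both held without each library in turn. LMNB2, with Young Early BZ replicate 2 left out, passed in IZ of all 4 conditions, at 0.59 (adjusted p = 0.0369) in Young Early, 0.55 (adjusted p = 0.0491) in Young Late and 0.55 (adjusted p = 0.0338) in Old Late beside Old Early. In Old Early BZ the difference of 0.60 (adjusted p = 0.0653) passed without that library (adjusted p = 0.036) or without Old Early BZ replicate 1 (0.75, adjusted p = 0.0418).

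LBR, which binds B-type lamins and heterochromatin and also has a sterol reductase activity, had no called difference in any comparison of a zone with its shams. Its CPM was 8.22, 7.09 and 6.19 in Young Early shams and 10.3, 10.6 and 10.2 in IZ, and 9.04, 7.55 and 8.18 in Old Early shams and 11.6, 10.5 and 13.7 in IZ. Early IZ libraries lay above their shams at both ages, with a difference of 0.53 in each (adjusted p = 0.102 in Young and 0.0825 in Old). Late IZ differed by -0.03 at both ages (adjusted p = 0.952 in Young and 0.921 in Old). In Old Late BZ it lay at 6.87, 7.26 and 7.12, below the shams at 10.4, 11.1 and 9.34, with a difference of -0.54 (adjusted p = 0.0752). With that outlying Young Early BZ library left out, Old Early IZ (0.53, adjusted p = 0.0427) and Old Late BZ (-0.54, adjusted p = 0.0388) passed the test in opposite directions. The mean IZ response was 0.25 ± 0.12 (adjusted p = 0.0736). It passed without Young Late IZ replicate 2 (0.29), Old Late IZ replicate 1 (0.31), Young Late Sham replicate 2 (0.31) or Young Early BZ replicate 2 (0.25, adjusted p = 0.0401). With RNA integrity as a covariate the mean IZ response (0.31, adjusted p = 0.0363) and Old Early IZ (0.66, adjusted p = 0.0466) passed. With only the groups compared in the fit, Old Early IZ (0.56, adjusted p = 0.0459) and Old Late BZ (-0.5, adjusted p = 0.0215) passed. Of all genes, 38.6% and 54.3% were called in these fits. The mean BZ response was 0.05 (adjusted p = 0.771).

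The balance of A-type to B-type lamins was measured in each library as the log2 ratio of LMNA to the sum of LMNB1 and LMNB2, each per kilobase. It was 2.63, 2.53 and 2.78 in Young Early shams, against 2.22, 2.37 and 1.80 in IZ. In Old Early shams it was 1.18, 1.10 and 1.41, against 2.63, 1.73 and 2.10 in IZ. So the Young Early IZ libraries lay below their shams by 0.52 in the mean, and the Old Early IZ libraries above theirs by 0.92, with mean ratios in the 2 injured groups of 2.13 ± 0.29 and 2.15 ± 0.45 (SD, n = 3). The lower ratio in Young Early IZ came through LMNB1, which differed by 1.67, against 0.64 for LMNA and 0.58 for LMNB2. The mean ratio of the shams was 2.65 ± 0.12 in Young Early, against 1.23 ± 0.16 in Old Early, 1.46 ± 0.47 in Young Late and 0.84 ± 0.68 in Old Late.

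Over all 4 conditions the ratio was 0.39 higher in IZ than in shams (p = 0.0651, exact permutation test within conditions, two-sided, 160000 arrangements, 12 libraries an arm) and 0.48 higher in BZ (exact p = 0.057). Neither passed with all libraries. The IZ difference passed without Young Early IZ replicate 3 (0.43, exact p = 0.0318) or Young Late Sham replicate 3 (0.44, exact p = 0.0447). The BZ difference passed without Young Early BZ replicate 1 or 3, Young Late BZ replicate 1, or replicate 3 of the Old Late, Old Early or Young Late shams (0.50 to 0.60, exact p = 0.0127 to 0.0497). It was 0.26 (exact p = 0.183) without Young Early BZ replicate 2. Both also moved with the B-type gene taken. With LMNB2 alone the differences were 0.73 (exact p = 3.75e-05) and 0.65 (exact p = 0.000812), and with LMNB1 alone 0.1 (exact p = 0.707) and 0.36 (exact p = 0.371). IZ and BZ of the same pigs differed by -0.09 (exact p = 0.777, 4096 sign changes), with the ratio higher in IZ in 7 of 12 pigs. The ratio reached 4.54 in Young Early BZ replicate 2 and its lowest value, 0.06, in Old Late Sham replicate 2, the sham with the highest LMNB1.

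**Figure D2:**
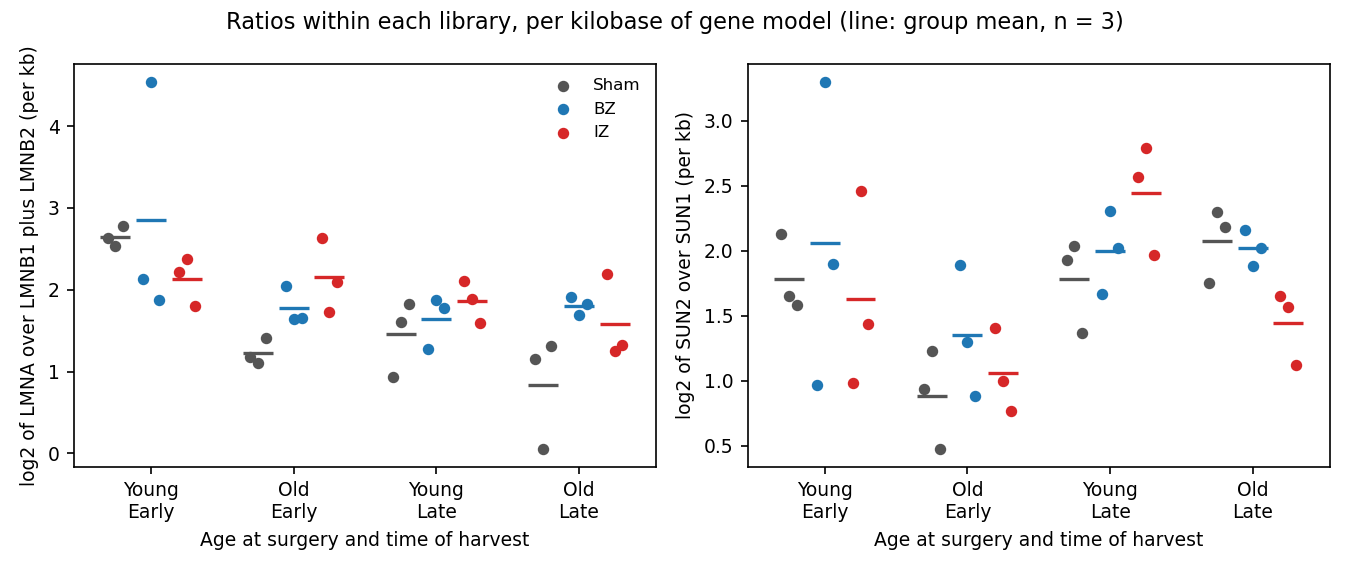
Log2 ratio of LMNA to LMNB1 plus LMNB2 per kilobase, and log2 ratio of SUN2 to SUN1 per kilobase, in each library by condition and region, with group means of 3. Young Early IZ lies below its shams in the lamin ratio (1.80 to 2.37 against 2.53 to 2.78) and Old Early IZ above its own (1.73 to 2.63 against 1.10 to 1.41).

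SUN1, which anchors nesprins at the inner membrane and also tethers telomeres in meiosis, was lower in injured tissue in every condition but Young Early. Its CPM was 73.2, 81.7 and 87 in Old Early shams, 70.4, 98.9 and 80.5 in Young Late shams and 90.1, 93.5 and 109 in Old Late shams. IZ in these conditions held 32.3, 53.9 and 60.3, then 28.9, 29 and 45.5, then 33.9, 51.4 and 54.5. BZ held 32.6, 49.5 and 60.9, then 53.8, 34.4 and 46.3, then 36.7, 42.4 and 55.1.

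Across these 3 conditions no zone library reached any of its shams. The share of all genes lying wholly below the shams in these conditions was 26.4%, 21.8% and 32.2% in IZ and 20.0%, 17.1% and 32.7% in BZ, and in Young Early hearts it was 20.7% and 6.33%. In Young Early hearts the shams lay at 37.3, 46.1 and 38.4, within the range of injured tissue elsewhere, and overlapped IZ (54.1, 25.8 and 48.2) and BZ (60.4, 8.48 and 51.7). In IZ, SUN1 fell by 1.27 ± 0.40 in Young Late hearts (adjusted p = 0.0157) and by 1.06 ± 0.39 in Old Late hearts (adjusted p = 0.0254). In BZ it fell by 1.12 ± 0.39 in Old Late hearts (adjusted p = 0.0238). The differences in Old Early IZ (-0.72 ± 0.39, adjusted p = 0.151), Old Early BZ (-0.76, adjusted p = 0.163) and Young Late BZ (-0.89, adjusted p = 0.125) did not pass. With only the groups compared in the fit they passed, at -0.7, -0.76 and -0.92 (adjusted p = 0.0344, 0.0464 and 0.0269). Of all genes, 38.6%, 23.2% and 12.5% were called in these fits. Young Early differed by 0.07 in IZ (adjusted p = 0.907) and -0.01 in BZ (adjusted p = 0.988).

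The mean SUN1 response was -0.75 ± 0.20 in IZ (adjusted p = 0.00167) and -0.70 in BZ (adjusted p = 0.00466), and both held whichever of the 24 libraries was left out. The single-condition calls rested on few libraries. Young Late IZ was lost without IZ replicate 1 or 2 or Sham replicate 2 (adjusted p = 0.0624 to 0.0691). Old Late IZ was lost without any IZ library or Sham replicate 3 (adjusted p = 0.0541 to 0.165, with the smallest difference, -0.79, without IZ replicate 1). Old Late BZ was lost without BZ replicate 1 or 2 or Sham replicate 3 (adjusted p = 0.0667 to 0.105). RNA integrity numbers in Old Late hearts were 7.8 to 8.4 in shams, 7.1 to 7.6 in IZ and 6.8 to 7.8 in BZ. With that number as a covariate both Old Late calls were lost, at -0.75 in IZ (adjusted p = 0.147) and -0.79 in BZ (adjusted p = 0.168). Without Young Early BZ replicate 2 more passed: Old Early IZ (-0.72, adjusted p = 0.027), Old Early BZ (-0.76, adjusted p = 0.0287) and Young Late BZ (-0.89, adjusted p = 0.0176) passed as well. Within the Young Late batches SUN1 differed by -1.77 and -1.05 in IZ and by -1.09 and -0.81 in BZ (batch 1 and batch 2, log2 CPM).

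SUN2, the second inner membrane anchor of the bridge, had its highest levels in Late shams. Its CPM was 140, 211 and 108 in Young Late shams and 157, 239 and 256 in Old Late shams, against 84.8, 75.2 and 59.7 in Young Early and 73, 99.8 and 62.9 in Old Early shams. The Late shams lay above the Early shams at both ages without overlap, as did 15.9% of all genes in Old and 15.7% in Young shams. In the Old shams the log2 difference was 1.47 ± 0.25, which is the change the genes were chosen on. Neither it nor the lack of overlap there counts as evidence about SUN2. LMNA differed by -0.30, SUN1 by 0.27 and SYNE2 by 0.04 in the same comparison. In the Young shams, which the choice did not use, SUN2 rose by 1.06 ± 0.25 (adjusted p = 0.0134), where 8.74% of all genes were called. That call was lost without Young Early Sham replicate 3 (0.93, adjusted p = 0.0711) or Young Late Sham replicate 2 (0.76, adjusted p = 0.122), the shallowest library at 8113200 counts.

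In Young Late hearts the 3 IZ libraries (89.1, 104 and 92.4) and the 3 BZ libraries (89.1, 89 and 97.3) lay below all shams. SUN2 fell by 0.68 ± 0.25 in IZ (adjusted p = 0.0409) and by 0.73 in BZ (adjusted p = 0.0484). Both calls were lost without Young Late Sham replicate 2, at -0.38 (adjusted p = 0.321) and -0.43 (adjusted p = 0.364). The IZ call was also lost without any of the 3 IZ libraries (-0.65 to -0.75, adjusted p = 0.0601 to 0.103), and the BZ call without any of the 3 BZ libraries or Sham replicate 1 (-0.71 to -0.79, adjusted p = 0.0505 to 0.15). Both were lost too with batch as a term (-0.64 and -0.71, adjusted p = 0.0539 and 0.0574), RNA integrity as a covariate (adjusted p = 0.0637 and 0.0904), the pig as a random block in limma-voom (-0.63 and -0.69, adjusted p = 0.0655 and 0.0839) or no count filter (adjusted p = 0.0616 and 0.0781), IZ and BZ in order. With only the groups compared, the BZ call was lost (adjusted p = 0.0604). Within the batches the IZ difference was -1.24 and -0.32, and the BZ difference -1.11 and -0.46 (batch 1 and batch 2).

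In Old Late hearts SUN2 was at 55.2, 79.4 and 61.4 in IZ and 85.3, 81 and 116 in BZ, below all 3 shams, with differences of -1.73 ± 0.26 and -1.21. Old Early hearts held 44.6, 56.1 and 53.2 in IZ and 62.9, 63.4 and 58.3 in BZ, with differences of -0.61 and -0.35. These 4 values share the Old shams the genes were chosen on and carry no test. Young Early IZ (55.4, 73.8 and 68.1) and BZ (61.4, 43.3 and 100) overlapped their shams, with differences of -0.16 ± 0.25 (adjusted p = 0.674) and -0.10 (adjusted p = 0.862). Per kilobase, SUN2 exceeded SUN1 in every group mean, with a log2 ratio from 0.88 ± 0.38 (SD, n = 3) in Old Early shams to 2.44 ± 0.43 in Young Late IZ.

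**Figure D3:**
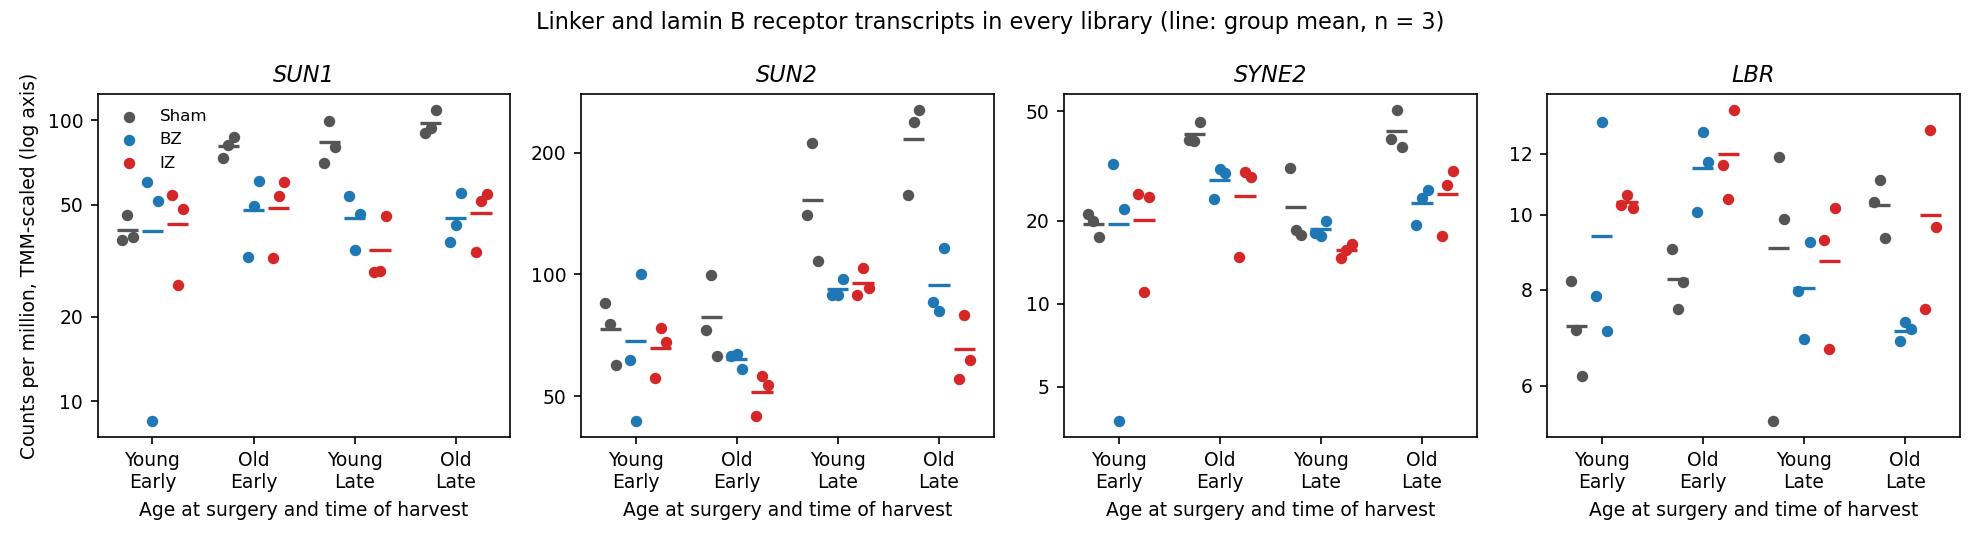
TMM-scaled CPM (log axis) of SUN1, SUN2, SYNE2 and LBR in each library, by condition and region, with group means of 3. SUN2 lies at 108 to 256 in Late shams and at 59.7 to 99.8 in Early shams, and SYNE2 at 37.1 to 50.6 in Old shams and 17.5 to 31.1 in Young shams.

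SYNE2 encodes nesprin-2, whose long forms bind actin and whose tail sits in the outer nuclear membrane. Its CPM was 39.4, 38.8 and 45.5 in Old Early shams, against 24, 30.8 and 29.7 in BZ and 14.7, 30 and 28.7 in IZ. In Old Late hearts it was 39.6, 50.6 and 37.1 in shams, against 19.3, 24.2 and 25.9 in BZ and 17.6, 27 and 30.2 in IZ. Both zones of the Old hearts lay below their shams without overlap, yet no single-condition difference passed: -0.75 (adjusted p = 0.141) and -0.76 (adjusted p = 0.109) in IZ and -0.55 (adjusted p = 0.327) and -0.88 (adjusted p = 0.0785) in BZ, Early and Late in order. With only the groups compared in the fit all passed, at -0.73 and -0.71 in IZ (adjusted p = 0.0452 and 0.0309). In BZ they were then at -0.55 and -0.84 (adjusted p = 0.0402 and 0.0028), again Early and Late in order. In these fits 38.6% and 52.2% of all genes were called in IZ, and 23.2% and 54.3% in BZ, in the same order.

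In Young hearts the SYNE2 shams were lower, at 21.2, 19.9 and 17.5 in Early and 31.1, 18.5 and 17.7 in Late. Young Late IZ lay below them at 14.6, 15.7 and 16.4 (-0.54, adjusted p = 0.334), and Young Late BZ overlapped them at 18.1, 17.6 and 20. Young Early IZ held 25, 11 and 24.4 and BZ 32.2, 3.74 and 22.1, on both sides of the shams. The mean IZ response was -0.50 ± 0.20 (adjusted p = 0.0317). It was lost without Young Late Sham replicate 1, Old Late Sham replicate 2, Young Early IZ replicate 2 or replicate 1 of Young Late, Old Early or Old Late IZ (-0.42 to -0.47, adjusted p = 0.0558 to 0.076), and with RNA integrity as a covariate (-0.40, adjusted p = 0.0825). The mean BZ response was -0.43 (adjusted p = 0.0763), and -0.31 (adjusted p = 0.0648) without the outlying Young Early BZ replicate 2. Without Young Early BZ replicate 1, which leaves the outlying library more weight, it was -0.57 (adjusted p = 0.0141). With all libraries the mean BZ response passed in limma-voom with the pig as a random block (-0.54, adjusted p = 0.0313). Without Young Early BZ replicate 2, SYNE2 passed in Old Early IZ (-0.75, adjusted p = 0.0222), Old Late IZ (-0.77, adjusted p = 0.0144) and Old Late BZ (-0.88, adjusted p = 0.00769).

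**Figure D4:**
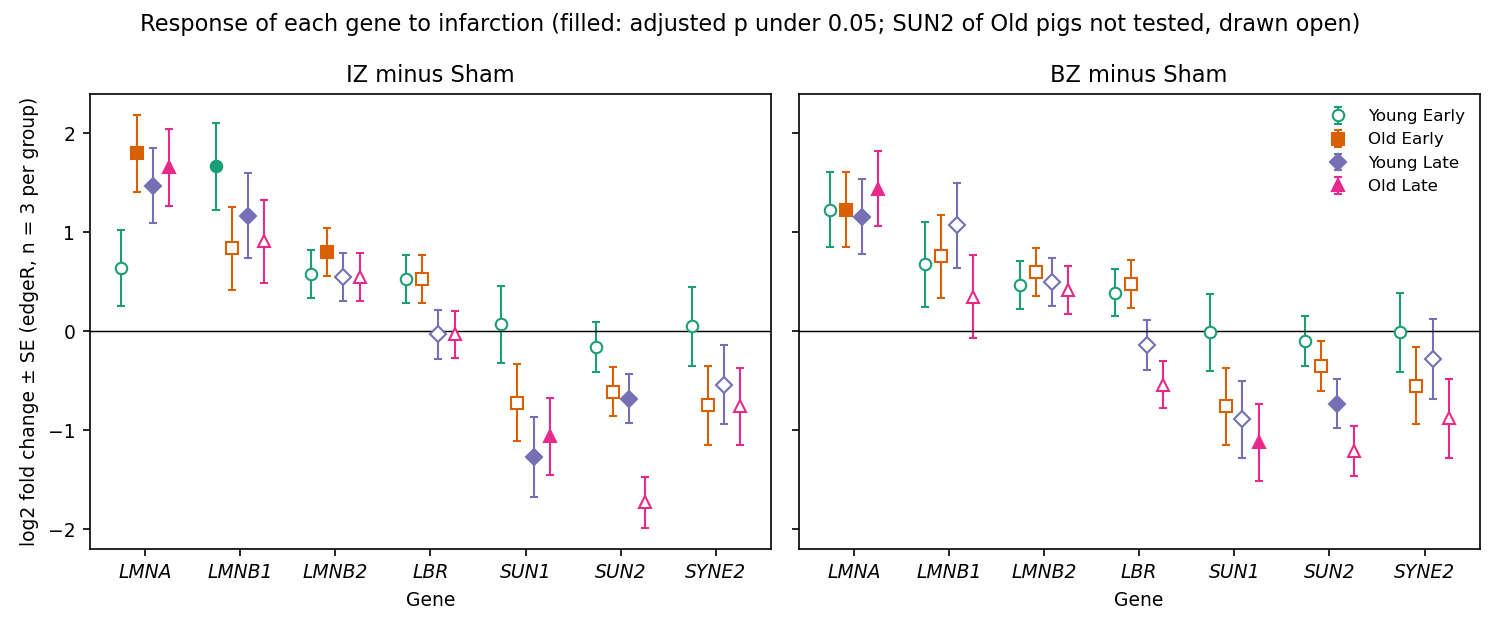
Log2 fold change of each member in IZ and BZ against sham in the 4 conditions, with SE bars derived from edgeR's F statistic. Filled points passed the test at an adjusted p under 0.05, open points did not, and SUN2 in Old hearts is drawn as not tested. LMNA lies between 0.64 and 1.80 in all 8 comparisons, and SUN1 between -1.27 and -0.72 in all but Young Early.

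Among sham hearts, LMNA was lower and SYNE2 higher in Old than in Young pigs at the Early time. There, at 3 days of age in Young and 15 days in Old pigs, LMNA fell by 1.26 ± 0.38 in Old (adjusted p = 0.0156) and SYNE2 rose by 1.08 ± 0.40 (adjusted p = 0.0412), against 31.1% of all genes called. No Old library overlapped a Young library for either gene, as for 28.9% of all genes above and 26.9% below. SUN1 was at 0.99 (adjusted p = 0.054), LMNB1 at 0.63 (adjusted p = 0.268), LMNB2 at -0.40 (adjusted p = 0.194) and, as a description, SUN2 at 0.10. With only these groups in the fit SUN1 passed (0.99, adjusted p = 0.000422), where 51.7% of all genes were called. All Young Early libraries belong to preparation batch 1 and all Old Early libraries to batch 2, so age and batch cannot be told apart except through the mixed Young Late libraries. With batch as a term LMNA was at -1.26 (adjusted p = 0.0946) and SYNE2 at 0.97 (adjusted p = 0.209). RNA integrity numbers were 6.4 to 6.9 in Young Early and 7.1 to 7.6 in Old Early shams, and with that number as a covariate LMNA was at -1.24 (adjusted p = 0.055) and SYNE2 at 0.78 (adjusted p = 0.197).

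The LMNA call in Early shams was lost without Old Early Sham replicate 3 (-1.27, adjusted p = 0.0534), and the SYNE2 call without any one of the 6 libraries (1.00 to 1.14, adjusted p = 0.0672 to 0.113) or with no count filter (1.09, adjusted p = 0.0533). In Late shams, at 9 and 21 days, none of the 6 members tested was called by edgeR, limma-voom or DESeq2, and 1 of 6, SYNE2 (0.91, adjusted p = 0.13), had an unadjusted p under 0.05, against 10.9% of all genes called. LMNA was at -0.59 there (adjusted p = 0.305). With only these groups in the fit, SYNE2 (0.84, adjusted p = 0.0362) and LMNA (-0.64, adjusted p = 0.0442) passed, where 19.0% of all genes were called. All Old Late libraries are of preparation batch 3 and no Young Late library is, so age and batch cannot be told apart in Late shams. Between Young Late and Young Early shams LMNA differed by -0.98 (adjusted p = 0.0958) and SUN1 by 1.03 (adjusted p = 0.0902). With only these groups in the fit both passed, at -0.93 (adjusted p = 0.0201) and 1.1 (adjusted p = 0.0104), where 13.9% of all genes were called. Without Young Early BZ replicate 2 the calls in these sham comparisons went from 3 to 7 of 19. Added were SUN1 in Early shams (0.99, adjusted p = 0.00426), SYNE2 in Late shams (0.91, adjusted p = 0.0183), and LMNA (adjusted p = 0.0044) and SUN1 (adjusted p = 0.00909) between the Young shams. Of all genes, 41.7% were then called in Early shams, 21.0% in Late shams and 19.3% between the Young shams.

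Whether a response to injury differed between Old and Young pigs was tested as the difference of the 2 responses. With edgeR 0 of 24 member comparisons were called, as with DESeq2 and limma-voom, and 1 had an unadjusted p under 0.05. That one was LMNA in Early IZ, whose response was larger in Old pigs by 1.16 ± 0.53 (adjusted p = 0.168). Of all genes, 0.915% were called in Early IZ, 3.67% in Late IZ, 0.22% in Early BZ and 1.09% in Late BZ. LMNB1 in Early IZ went the other way, at -0.83 (adjusted p = 0.372). When Young Early BZ replicate 2 was left out, 3 were called: LMNA in Early IZ (1.16, adjusted p = 0.0206), LMNA in Early BZ (1.25, adjusted p = 0.0206) and SUN1 in Early BZ (-1.22, adjusted p = 0.0373), with 15.8% and 15.3% of all genes called in Early IZ and Early BZ. With only the groups compared in the fit, LMNA in Early IZ passed at 1.17 (adjusted p = 0.0407), where 10.6% of all genes were called.

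Infarct and border zones of the same pigs were compared with the pig as a block in the 24 libraries of infarcted hearts. LMNB1 rose in IZ against BZ in Young Early hearts by 1.13 ± 0.23 (adjusted p = 0.0119), with IZ at 21.8, 21.8 and 37 and BZ at 12.2, 5.7 and 22.7. It also rose on the mean of the 4 conditions by 0.46 ± 0.11 (adjusted p = 0.0128). Those were 2 of 35 member comparisons called, against 10.7% of all genes in Young Early and 21.4% on the mean. No member was called in Old Early or Young Late, where no gene was (0.0%) and no member had an unadjusted p under 0.05, or in Old Late, where 2.05% of genes were called and 3 of 7 members had an unadjusted p under 0.05. DESeq2 called no member in these 3 conditions either.

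Those 3 in Old Late hearts were LMNB1 (0.53, adjusted p = 0.194), LBR (0.45) and SUN2 (-0.55, adjusted p = 0.159). Both LMNB1 calls held without each library in turn. Leaving out either library of the Young Early pig that gave BZ replicate 2 removes that pig. LMNB1 was then at 0.77 in Young Early (adjusted p = 0.0453), and 7 of 35 comparisons were called. Added in Old Late were LMNB1 (0.55, adjusted p = 0.0327) and SUN2 (-0.54, adjusted p = 0.0185). Added on the mean were LMNA (0.41, adjusted p = 0.0173), LBR (0.27, adjusted p = 0.0413) and SUN2 (-0.27, adjusted p = 0.00964). Of all genes, 2.26% were then called in Young Early, 10.7% in Old Late and 26.4% on the mean. The mean SUN2 difference also passed with all libraries when RNA integrity was a covariate (-0.30, adjusted p = 0.0393). Without the pig as a block neither LMNB1 value passed, at 0.97 (adjusted p = 0.101) and 0.42 (adjusted p = 0.103).

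Other genes of the nuclear envelope were called in both directions. Of 19 tested genes listed as lamin partners of the inner membrane, not all of them membrane proteins, 5 rose and 5 fell in the mean IZ response. Their median was 0.08, against 0.01 over all genes. Since 59.6% of all genes were called there and 46.4% in the mean BZ response, these 10 and the counts of the 3 lists that follow in IZ lie below the background share and are not results about the lists. Among them TMEM43, an emerin-binding membrane protein also called LUMA, rose by 0.69 ± 0.12 (adjusted p = 1.47e-05) and TMEM201, also called Samp1, fell by 0.66 ± 0.13 (adjusted p = 5.02e-05). Of 5 prelamin processing genes, which finish the tail of lamin A, 2 rose: FNTB, a farnesyltransferase subunit (0.45), and RCE1, a protease (0.40). ZMPSTE24, the protease that cuts prelamin A, was at -0.09 (adjusted p = 0.517).

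Of 25 nuclear pore genes tested, 6 rose and 5 fell, with a median of -0.08. NDC1, a membrane protein of the pore, rose by 1.02. Of 11 tested partners of nesprins and organisers of microtubules at the nucleus, 1 rose and 2 fell. The 2 were AKAP6, the perinuclear anchor mAKAP, which fell by 1.05 ± 0.14 (adjusted p = 2.31e-07), and AKAP9, a Golgi and centrosome scaffold, which fell by 0.70. DES, the muscle intermediate filament desmin, rose by 0.48. In the mean BZ response the counts were 4 higher and 5 lower of 19, 1 higher of 5, 4 higher and 5 lower of 25, and 1 higher and 2 lower of 11.

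Called cell cycle and collagen genes all rose in the same comparison. Of the 31 cell cycle genes tested, 25 rose in the mean IZ response (31.2% of all genes did), with a median of 0.79, and 18 in BZ (25.5% of all genes). All 10 fibrillar collagens and crosslinking enzymes rose in both zones, with medians of 2.24 and 1.58.

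The members' levels were also correlated with one another across the 36 libraries, which share groups, batches and tissue makeup, so these values describe the libraries only. LMNA and LMNB2 correlated at r = 0.80 (Pearson, log2 CPM) and SUN1 and SYNE2 at 0.86. LMNA and SUN1 correlated at -0.88, LMNA and SYNE2 at -0.77, LMNA and SUN2 at -0.68, and LMNA and LMNB1 at 0.27. The genes most like LMNA were SELENOF, MYDGF and EIF4A1 (each r = 0.96), and those most like SUN1 were PDPK1 (0.97), PRPF39 (0.96) and TRAPPC11 (0.96). LMNB1 was followed most closely by MCM6 (0.90), GFRA3 and SMC2 (both 0.89), and LMNB2 by ORC1 (0.91), NACC1 (0.90) and JPT2 (0.89). SYNE2 was followed by ZNF521 (0.94), IGSF3 and KIDINS220 (both 0.93), SUN2 by DNMT1 (0.87), ALDH4A1 and SLC19A2 (both 0.86), and LBR by ADAM10, TOGARAM2 (both 0.81) and TRAM1 (0.72).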

How the data were processed

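Polyadenylated RNA of 36 tissue samples was sequenced as stranded paired reads, per the labels' protocols. The submitters' processing notes name bcl2fastq 2.19.0.316, Trimmomatic 0.36, STAR and featureCounts of Subread 1.5.1. The deposited table holds raw counts per gene with exon coordinates and gene lengths, per the file headers. The build and the strand setting of the counting are not given in the sources used here. Groups came from the sample titles and labels, and pigs from the titles. No 2 libraries held identical counts.

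Counts were tested with edgeR 4.0.16 (quasi-likelihood, TMM, filterByExpr with a minimum count of 10 and a total of 15, robust, non-legacy spread estimate) in R 4.3.3, with 12 group means and 24 residual degrees of freedom over 14537 genes. The spread estimate was chosen after both had been run. Infarct and border zones, which come from the same pig, were compared in a fit with the pig as a block (14386 genes, 8 residual degrees of freedom). The pairing comes from the titles, and libraries of 1 pig correlated at 0.378 in limma 3.58.1. The fit of 12 group means has no term for the pig and treats the 36 libraries as independent. Its 24 residual degrees of freedom do not allow for that correlation. Adjusted p-values are Benjamini-Hochberg over all genes of each of 23 comparisons, called under 0.05. The SE of a log2 fold change is its absolute value divided by the square root of the F statistic of the quasi-likelihood test. Lamin ratios were tested by exact permutation over samples. The fit was also run on simulated counts for Young Early IZ against Sham alone. Those counts had no link between libraries of 1 pig and no outlying library, so they do not bear on either. Log2 CPM for correlations used a prior count of 2.

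All members are named in every comparison. From other lists up to 2 called genes with the largest change are named, and for each member the 3 genes of highest correlation; ZMPSTE24 and DES were added after their values were seen. The members and lists were chosen with earlier results of these data known. Alternatives were DESeq2 1.42.0 and its size factors, no count filter, only the groups compared, batch, RNA integrity, limma-voom with the pig as a random block, no block, the other pig label, no mitochondrial genes, each library left out, and, chosen after seeing the data, library totals and the legacy spread. The promoter motif search was not run.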

Additional observations from a re-analysis of the deposited data

Results flagged for a closer look

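The log2 ratio of A-type to B-type lamins moved in opposite directions in the Early infarct zones of the 2 ages. In Young pigs the difference from sham was -0.52, with all 3 IZ libraries below all 3 shams. In Old pigs it was 0.92, with all 3 IZ libraries above all 3 shams. The lower ratio in Young pigs came through LMNB1, which differed from sham by 1.67 there, against 0.64 for LMNA and 0.58 for LMNB2. In Old pigs the differences were 0.84 for LMNB1, 1.80 for LMNA and 0.80 for LMNB2. The difference between the ages was not tested, and each group holds 3 libraries.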

How the results depend on the processing

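Of 28 calls of single members, 15 held when each library of their comparison was left out in turn, and no member value reversed direction while called. The largest change came from Young Early BZ replicate 2. With each library left out in turn, calls ranged from 6 to 18 in IZ, from 3 to 10 in BZ and from 8 to 10 for the means. They ranged from 1 to 7 in shams, from 0 to 3 for Old minus Young responses and from 2 to 7 for IZ minus BZ. The highest value in each came without that library. Its removal also raised the share of all genes called in most comparisons, as given above. Leaving out any other library gave at most 13, 8, 10, 5 and 0, and, for IZ minus BZ, 2, except that the IZ library of the same pig also gave 7. BZ calls went from 5 to 8 without Young Late Sham replicate 1 and to 3 without Young Late BZ 2 or 3, Old Late BZ 1 or 2, Old Early BZ 3, Young Late Sham 2, Old Early Sham 1 or 3, or Old Late Sham 3. Sham calls went from 3 to 5 without Young Early BZ 1 and to 1 without Young Early Sham 3 or Old Early Sham 3. Ratios ranged from 0.29 to 0.45 (IZ), 0.26 to 0.60 (BZ) and -0.17 to 0.10 (IZ minus BZ).

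With only the groups compared in the fit, calls went from 9 to 16 in IZ, from 5 to 10 in BZ, from 3 to 8 in shams and from 0 to 1 for the responses. Of all genes, 34.0%, 38.6%, 34.2% and 52.2% were then called in IZ, in the order of conditions used above. In BZ the shares were 0.0%, 23.2%, 12.5% and 54.3%. They were 51.7% in Early shams, 19.0% in Late shams, 13.9% between Young shams and 10.6% for the Early IZ response. Library totals gave 14 in IZ and 6 for IZ minus BZ, where the fit without the replicate block gave 0. RNA integrity as a covariate gave 2 in BZ and 1 in shams. With LMNB2 alone the lamin ratio was 0.73 in IZ and 0.65 in BZ, and without division by length 0.50 (exact p = 0.00906) and 0.53 (exact p = 0.0144). The cause was not tested in these cases. With the pig as a random block in limma-voom, calls were 10 in IZ, 4 in BZ, 10 for the means, 3 in shams and 0 for the responses, and the other pig label left IZ minus BZ at 2. Batch as a term gave no value for all sham comparisons together.

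Calls over all genes varied more. The ranges given first cover the alternatives other than leaving a library out. In Young Early IZ the main count, lowest and highest were 3956, 3017 and 6589. They were 162, 0 and 557 in Young Early BZ, 2071, 1372 and 2692 in Young Late BZ, and 5775, 3609 and 7291 in Old Late BZ. They were 4516, 1400 and 6613 in Early shams, 1583, 133 and 2425 in Late shams and 1271, 584 and 2051 between Young shams. For responses they were 133, 0 and 1444 in Early IZ, 533, 210 and 1051 in Late IZ, 32, 0 and 591 in Early BZ, and 158, 4 and 596 in Late BZ. For IZ minus BZ they were 1541, 355 and 4733 in Young Early, 0, 0 and 5 in Old Early, 0, 0 and 79 in Young Late, 295, 0 and 1015 in Old Late, and 3073, 1511 and 5084 on the mean. Leaving out each library in turn gave 11 to 979 in Young Early BZ and 694 to 3101 in Young Late BZ. For responses it gave 0 to 2334 in Early IZ and 0 to 2256 in Early BZ, and for IZ minus BZ 0 to 1561 in Old Late. These highest counts exceed those above. Some others did not, with 2304 to 5334 in Young Early IZ and 0 to 530 for the Late BZ response. LBR had the lowest median raw count of the members, 197.5, and LMNB1, SYNE2 and LBR had 50, 86 and 89 in their lowest libraries.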
